A study of Capra hircus with 3 samples.

Results

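The cells described here are a group of hair follicle cells from goat fetuses at embryonic day 120 (E120), chosen by the presence of ALDH1A3, NPTX2, KITLG, PRDM1 and CRABP1. An E120 cell was a member when the table gave a value above 0 for at least 3 of these 5 genes and 0 for both COL1A1 and RSPO2. By this rule 2191 of 6896 E120 cells were members (31.77%, exact binomial 95% interval 30.67 to 32.89), of 20676 cells in the whole series. The remaining 4705 E120 cells are called the other E120 cells. The 5 genes and the 2 excluding genes chose the members, so their values are a description and support nothing.

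The series covers back skin of fetuses of the Northern Shaanxi White Cashmere goat, sequenced as single cells with a droplet 3′ kit, and each of E60, E90 and E120 is 1 library. According to the labels, the E60 and E90 skin was dissociated whole with collagenase IV, whereas at E120 the follicles were first pulled out of the digested skin with forceps and then dissociated with TypLE Express, as the labels spell it. The labels name no treatment or allele, and suspensions from 2 or more fetuses were mixed for every stage ahead of barcoding. No label ties a cell to a fetus, so the E120 library is 1 sample, the cells are not replicates, and no p-value is given. The design text states 19705 cells, whereas the table holds 20676.

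A hair follicle grows from the matrix, the dividing epithelium of the bulb that wraps the dermal papilla and gives rise to the hair shaft and the inner root sheath. Retinoic acid, made from retinaldehyde by ALDH1A3 and bound in the cytoplasm by CRABP1, is a known regulator of epithelial differentiation in skin. KITLG is the ligand of the receptor KIT, on which melanocytes depend, PRDM1 is a transcriptional repressor that acts in epithelial and immune differentiation, and NPTX2 is a secreted pentraxin best known from synapses. COL1A1, a collagen of mesenchymal cells, and RSPO2, a secreted amplifier of Wnt signalling, mark the dermal side of the follicle.

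The depth of the members was 33828794 UMIs (unique molecular identifiers, the count of captured molecules), and the median member had 14345 UMIs in 2427 genes. The other E120 cells held 59574497 UMIs, and their median cell had 12274 in 2222 genes. Mitochondrial genes took a median of 5.594% of UMIs in members and 5.072% in the others. A simulated-doublet score marked 52 members (2.373%) and 49 other cells (1.041%), so members were marked more often. Levels below are CPM, the UMIs of a gene summed over a group of cells and scaled to a group total of 1000000, with exact 95% intervals that cover counting error only.

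Among the rule genes, the retinoid pair came out at 608.8 CPM for ALDH1A3 (600.5 to 617.2) and 493.8 CPM for CRABP1 (486.3 to 501.4) in members. The other E120 cells held 54.34 CPM of ALDH1A3 and 93.19 CPM of CRABP1. The secreted factors KITLG and NPTX2 stood at 629.1 and 413.9 CPM in members and at 124.5 and 45.44 CPM in the others, and PRDM1 stood at 109 against 27.49 CPM. All 5 were thus still present outside the group, since the rule needs only 3 of them. ALDH1A3 reached 94 UMIs in a single member, with a median of 3 over all members.

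The rule genes did not mark the same cells equally. Of the members, 958 had exactly 3 of the 5 genes, 628 had 4 and 605 had all 5, and the commonest set of exactly 3 was ALDH1A3, NPTX2 and KITLG (203 cells, 9.265% of members). KITLG was present in 88.73% of members, ALDH1A3 in 85.35%, NPTX2 in 77.09%, CRABP1 in 68.37% and PRDM1 in 64.35%. In the cluster with immune markers, which should lack an epithelial program and had a median of 3718 UMIs per cell, ALDH1A3 was seen in 17.35% of cells, CRABP1 in 20.41% and KITLG in 22.45%. With every cell thinned to 2000 UMIs these shares were 10.2%, 11.22% and 15.31% there, against 49.2%, 38.38% and 56.6% in members. The rule chose members by these genes, so the gap between members and other cells is built in. In the other E120 cells the thinned shares of ALDH1A3 (9.692%) and CRABP1 (8.799%) were below those of the immune cluster. KITLG (17.56%) and PRDM1 (6.695%, against 4.082% in the immune cluster) were above those of the immune cluster. The other cells were not uniform. Clusters with dermal papilla markers, which held 1 member, had thinned shares of 65.47% for ALDH1A3 and 77.58% for CRABP1.

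Levels of the rule genes rose with the number of them present, by which the groups below were formed. Members with exactly 3 of the genes held 138.1 CPM of ALDH1A3, 161.4 of NPTX2, 304.2 of KITLG, 60.64 of PRDM1 and 152.7 of CRABP1. The 1540 cells with exactly 2 of the genes, and no COL1A1 or RSPO2, held 60.29, 66.86, 212.3, 45.61 and 50.79 CPM in the same order. Members with all 5 genes held 1373 CPM of ALDH1A3 and 1038 CPM of CRABP1. This order follows from counting the genes present and is a description only. At least 3 of the rule genes had 2 or more UMIs each in 1242 members (56.69%), and 93 members (4.245%) had no rule gene above 1 UMI.

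Depth bore on membership. From the shallowest to the deepest of 4 depth classes of 1724 E120 cells, members made up 18.62%, 35.61%, 33.18% and 39.68% of cells. When each cell was thinned to 2000 UMIs before the rule was applied, no cell was too shallow, and 914 E120 cells passed (13.25%, 12.46 to 14.08). Of these, 901 were members on all their UMIs, which is 98.58% of the thinned group and 41.12% of the members. The depth classes then held 11.6%, 17%, 14.73% and 9.687% in the same order, so the deepest class no longer had the highest share.

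The same rule picked few cells in the earlier libraries. It passed 32 of 6849 cells at E60 (0.4672%) and 43 of 6931 at E90 (0.6204%), and after thinning 0 at E60, a count that allows up to 0.0438% by 3 counts of the total and 0.05385% as the exact 95% upper limit, and 23 at E90. The exclusion had a larger part there, since 96.06% of E60 cells and 83.32% of E90 cells had a UMI of COL1A1 or RSPO2, against 6.235% at E120. Before exclusion, at least 3 of the 5 genes were present in 207 cells at E60 (3.022%), 324 at E90 (4.675%) and 2322 at E120 (33.67%). CRABP1 alone was in 96.51% of E60 cells at 3934 CPM over the whole library, whereas NPTX2 was at 0.123 CPM at E60, 1.817 at E90 and 178.9 at E120. Stage, dissection and library cannot be told apart in these values, and the median depth was 8579 UMIs per cell at E60, 3714 at E90 and 13064 at E120.

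To see which kinds of cells the rule gathered, the E120 cells were clustered without the 7 rule genes, and clusters were named from marker lists. Of 27 clusters, those numbered 2, 3, 9, 13 and 16 had at least 20% of their cells passing after thinning, a threshold set after the data were seen. They are called the core clusters. The lowest of these shares was 24.36% in cluster 2, and the highest among the other 22 clusters was 6.593% in cluster 10. The core clusters held 1340 of the members (61.16%) and 843 of the 914 cells that passed after thinning (92.23%). They were chosen by their share passing after thinning, so these figures describe that choice. None of the 5 met the naming rule given below. Each still had markers of the outer root sheath and basal list. These numbered 8 in clusters 9 and 16, 6 in cluster 2 and 5 in clusters 3 and 13. KRT5 and KRT15 were among them in all 5. Outside the core, the same list gave 7 markers in cluster 7 and 9 in outer root sheath-like cluster 18. A marker only had to be in 10% of cells and 2-fold above the median cluster. Summed over the list, members of clusters 2, 3 and 9 held 321.4, 278.3 and 749.5 CPM, below 1515 CPM in the other E120 cells. Members of clusters 13 and 16 held 1814 and 6092 CPM, against 41288 CPM in cluster 18.

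Cluster 9 was made up of members almost throughout (272 of 276 cells, 98.55%, and 88.41% after thinning). Cluster 16 followed with 95.45% and 61.62%, cluster 3 with 77.15% and 42.32%, cluster 13 with 75.58% and 53.92%, and cluster 2 with 55.09% and 24.36%. Outside the core, 449 members (20.49%) lay in hair shaft-like clusters 1, 6, 14 and 25, whose cells were deep, with a median of 18229 UMIs. There 27.31% of cells passed on all UMIs and 0.8516% after thinning. Endothelial-like clusters 8 and 21 held 77 members (21.04% of their cells, 4.098% after thinning), and dermal papilla-like clusters 19 and 22 held 1.

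**Figure D1:**
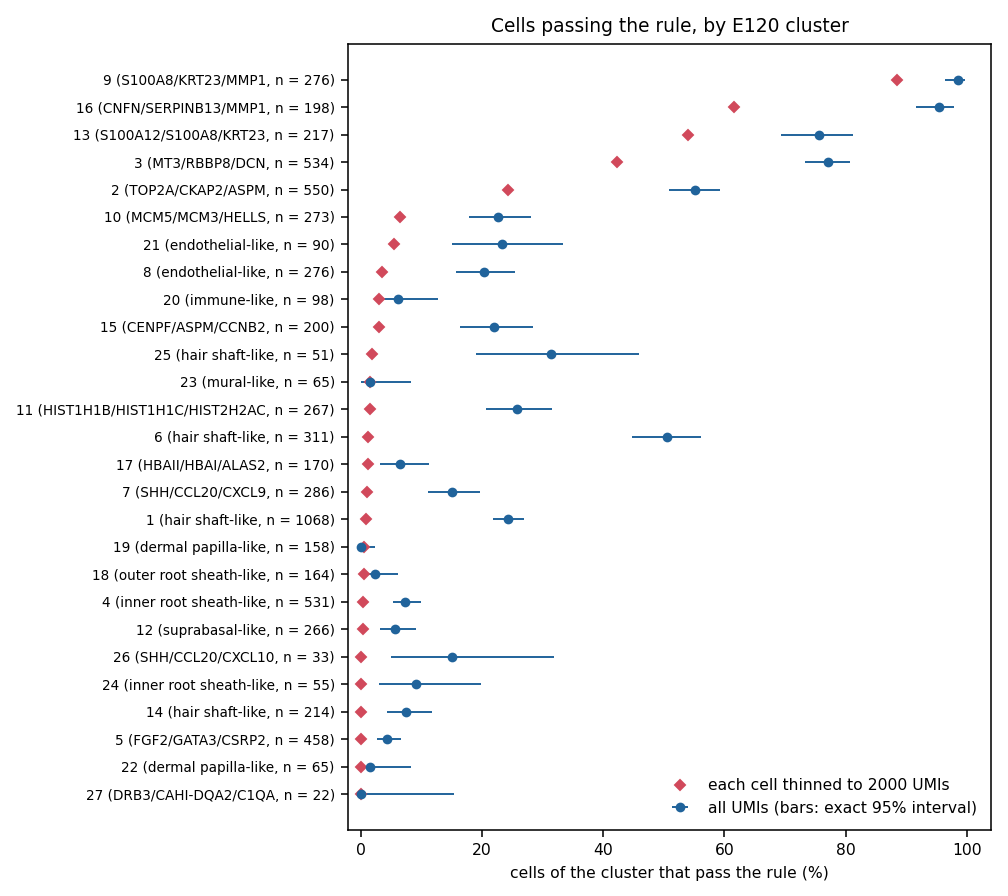
Share of cells passing the rule in each of the 27 E120 clusters, in percent of the cluster's cells; circles use all UMIs with exact 95% binomial bars, diamonds use cells thinned to 2000 UMIs. Clusters 9, 16, 13, 3 and 2 keep between 24.36% and 88.41% after thinning, whereas hair shaft-like cluster 6 goes from 50.48% to 1.286%.

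The label calls these cells matrix cells, and the matrix list was checked for that. Its 18 measured genes summed to 5898 CPM in members and 5515 CPM in the other E120 cells, a log2 ratio of 0.10. The same list summed to 12819 CPM in the dermal papilla-like clusters and 6464 CPM in the cluster with mural markers. ID1 and ID3 alone were at 2055 and 1310 CPM in members. The sum is thus not particular to matrix cells and cannot decide whether the members are such cells. Of its 15 tested genes 2 were at least 2-fold higher in members, LHX2 and BAMBI, and 2 lower, GATA3 and SOX9. Over all tested genes 1.74% were higher and 4.89% lower. In the core members it summed to 6739 CPM. LHX2, a homeodomain factor of follicle epithelium, was at 188.4 CPM in members against 91.68 CPM, MSX1 at 325.5 against 209.2 and HOXC13 at 456.8 against 297.7. GATA3, an inner root sheath regulator on the same list, was at 43.87 against 250.5 CPM, and SOX9 at 11.65 against 46.19. SHH, a signal of matrix cells, was at 18.56 against 37.43 CPM, and its log2 ratio of -0.97 was not called. Since the list does not decide whether they are matrix cells, the members are called by their rule genes.

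Across all genes, 91 of the 5218 with at least 10 CPM in either sum were at least 2-fold higher in members (1.74%), and 255 were at least 2-fold lower (4.89%), on the log2 scale of CPM + 1 and without the rule genes. With 1340 core members in place of all members, 217 of 5325 were higher (4.08%) and 421 lower (7.91%). Both contrasts come from the cells the rule chose. With every cell thinned to 2000 UMIs first, 170 genes were higher and 580 lower. Against other cells in clusters with at least 10% members, 27 of the 50 named genes stayed past 2-fold, and FMO2, KLK10, ANXA1, BAMBI, WNT10A, LHX2, MYC, FZD10, KRT84, FABP9, DSG1, ACTA2 and NOTCH3 were among those that did not. The highest ratios outside the lists were those of CNFN, SERPINB13, KRT23, S100A8 and MMP1. CNFN, a component of the cornified envelope, stood at 118.8 CPM in members (115.1 to 122.5) and 6.563 in the others, an 18.1-fold ratio. SERPINB13, a keratinocyte protease inhibitor, stood at 111.6 against 6.681 CPM.

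The keratin KRT23 was at 180.8 CPM in members against 12.56, and KRT19 at 372.8 against 83.36. The calcium-binding S100A8 was at 166.2 CPM against 14.55, its relative S100A10 at 156.1 against 55.06, and the collagenase MMP1 at 115 against 10.79. FABP3.1, listed as a copy of the fatty acid carrier FABP3, was at 5403 CPM in members and 765 in the others, 7.064-fold (6.992 to 7.137). CDKN1A, an inhibitor of the cell cycle, was 2.641-fold higher at 246.9 CPM, and MREG, which acts in melanosome transfer, 3.5-fold higher at 123.8 CPM. Ratios from 2.286 to 2.818-fold were found for EMP1, FMO2, PPA2 and SCPEP1. Near-identical copies may share reads in the FABP, S100, keratin, CRABP, haemoglobin and metallothionein families, so single members of these are uncertain.

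**Figure D2:**
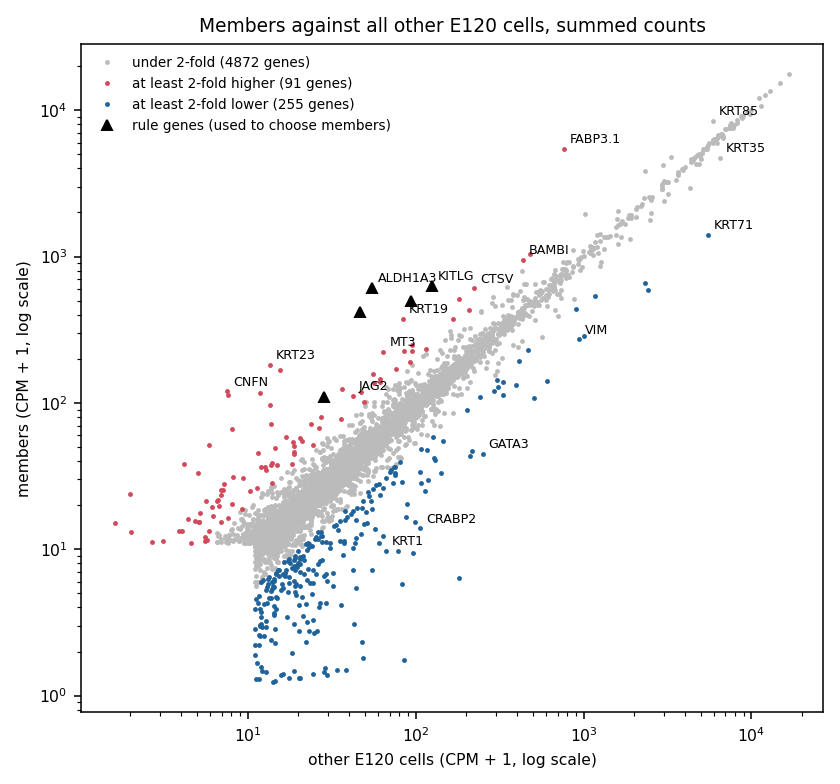
Summed level of each tested gene in members (vertical) against all other E120 cells (horizontal), both as CPM + 1 on log axes; red genes are at least 2-fold higher, blue ones at least 2-fold lower, and triangles are the rule genes. FABP3.1 at 5403 CPM and CNFN at 118.8 CPM stand above the diagonal, and KRT71 at 1399 CPM and GATA3 at 43.87 CPM below it.

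The inner root sheath and suprabasal lists were lower in members. Of the 8 tested inner root sheath genes, 6 were at least 2-fold lower and 2 higher, with a median log2 ratio of -1.99 against -0.05 over all tested genes. All tested genes together had 4.89% lower and 1.74% higher. KRT71, a keratin of that sheath, was at 1399 CPM in members and 5496 in the others, and KRT25 at 591.4 against 2427. The 2 higher members of the list, the cathepsin CTSV (605.2 against 221.9 CPM) and the thyroid hormone-binding CRYM (52.94 against 17.52), were at 954.5 and 84.82 CPM in core members. Of 7 tested suprabasal epidermis genes, 5 were lower and none higher, among them KRT1 at 8.72 against 65.23 CPM, SBSN at 139.7 against 602.6 and SPINK5 at 32.04 against 140. None of KRT71, KRT25, KRT27, KRT28, KRT1, SBSN and SPINK5 stayed past 2-fold when the other cells were limited to clusters with at least 10% members. Their log2 ratios then lay between -0.22 for KRT27 and 0.18 for SBSN, which changed sign.

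Outside the lists, the 8 lowest genes were KLK10, IRX2, ANXA1, VIM, GAL1, CSRP2, CLDN1 and RND3, between 2.678-fold and 4.658-fold lower. VIM, the intermediate filament of mesenchymal cells, was at 270.3 CPM in members and 933.1 in the others. In the core members it was at 31.01 CPM, and in members of cluster 8, which is endothelial-like, at 6640 CPM. The tight junction gene CLDN1 was at 132.5 against 396.2 CPM. GAL1, at 39.76 against 129.7 CPM, turned to a log2 ratio of 0.28 against other cells in clusters with at least 10% members. Without the exclusion by COL1A1 and RSPO2, VIM and GAL1 fell short of 2-fold.

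The hair shaft list showed how mixed the members were. Its 16 measured genes summed to 14498 CPM in members and 14566 CPM in the other E120 cells, a log2 ratio of -0.01 (10 tested, 0 higher, 3 lower). Among all tested genes 1.74% were higher and 4.89% lower. In the core members the sum was 1241 CPM and in the members of other clusters 28776 CPM. After thinning the log2 ratio of the list was -2.62. KRT85, an early shaft keratin, was at 433.7 CPM in core members and 17049 CPM in the remaining members, and KRT35 at 548.1 and 9259. By the number of rule genes present, KRT85 was at 13388 CPM with 3, 6977 with 4 and 2110 with all 5. FABP9, KRT84 and SELENBP1 were the 3 genes at least 2-fold lower, at 285.1 against 1010, 112.7 against 328.8 and 142.1 against 302.8 CPM.

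Markers of other cell types were summed in the same way, as whole lists. The endothelial list of 11 genes summed to 122.9 CPM in members and 237.6 in the others, but to 11.8 CPM in core members and 242.7 CPM in the remaining members, and none of its 4 tested genes passed 2-fold over all members. The dermal papilla list, without the 2 excluding genes, summed to 198.7 CPM in members, 510.6 in the others and 12256 in the dermal papilla-like clusters. Of 11 tested papilla genes 7 were at least 2-fold lower and none higher, beside 4.89% lower and 1.74% higher over all tested genes. CORIN, ALX4, PAPPA and SFRP4 had no UMI in any member, against a floor of 3 counts at 0.0887 CPM. These genes were also under 10 CPM in the other E120 cells. None was among the markers found in dermal papilla-like clusters 19 and 22, so their absence from members says little. The contrast depended on the comparison cells: the log2 ratio of the list was -1.36 against all other E120 cells and 0.0001 against those with 0 of both genes. The immune list summed to 4.759 CPM in members against 22.63, with CSF1R, TYROBP and HDC at 0, and the mural list to 57.55 against 124.7, with RGS5 at 0. These zeros say little, since each of these genes was also under 10 CPM in the other E120 cells.

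**Figure D3:**
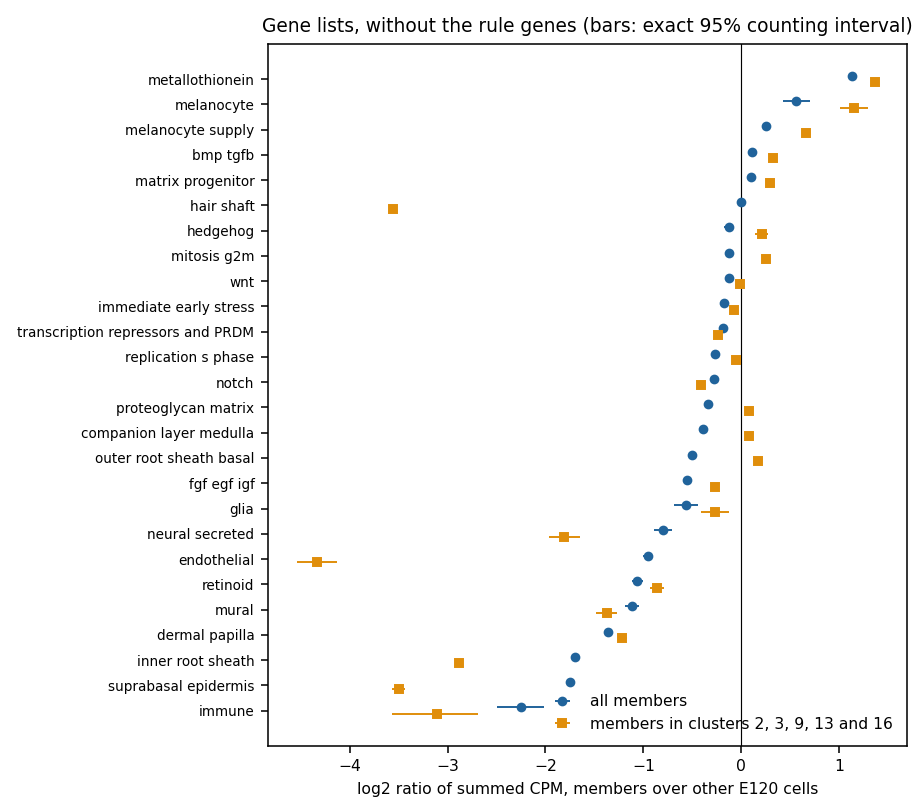
Log2 ratio of the summed CPM of each of 26 gene lists over that in other E120 cells, without the rule genes; circles are all members, squares are members of the 5 core clusters, and bars are exact 95% counting intervals. Metallothioneins lie at 1.13 and 1.36, and the hair shaft list lies at -0.01 for all members and at -3.55 for the core members.

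Within the retinoid list, the 15 measured genes other than the rule pair summed to 90.96 CPM in members and 189.8 in the others. Of the 5 tested none was at least 2-fold higher and 2 were lower, beside 1.74% and 4.89% over all tested genes. CRABP2, which carries retinoic acid to its nuclear receptors, was at 12.86 CPM in members and 105.5 in the others, 8.202-fold lower. Against other cells in clusters with at least 10% members its log2 ratio was -0.23, short of 2-fold. CRABP2 was at 768.2 CPM in the outer root sheath-like cluster, where CRABP1 was at 12.49 CPM, and both were high in the dermal papilla-like clusters, at 1078 and 2542 CPM. RDH10, which makes retinaldehyde from retinol, was at 21.67 CPM in members and 10.99 in the others, 1.971-fold. In core members it was at 31.64 CPM, 2.878-fold, the 1 of 5 tested genes at least 2-fold higher there. Another 2 were lower there, beside 4.08% higher and 7.91% lower over all tested genes. DHRS3, which turns retinaldehyde back into retinol, was at 24.39 CPM in members, 39.16 in core members and 29.48 in the other E120 cells. RXRG and TTR had no UMI in members, but both were also under 10 CPM in the other E120 cells.

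Of the signalling lists, few genes passed 2-fold in either direction. Of 17 tested Wnt genes, 1 was at least 2-fold higher in members and 3 were lower, with a median log2 ratio of -0.15. The higher one was the ligand WNT10A, at 76.03 against 34.78 CPM, and the receptor FZD10 was lower, at 22.61 against 60.65. Of 15 tested BMP and TGF-β genes, 2 were higher, the ligand BMP2 at 33.97 against 11.87 CPM and the decoy receptor BAMBI at 942.4 against 435, and 3 were lower. Of 7 Notch genes, the ligand JAG2 was higher, at 111.1 against 41.33 CPM, whereas 3 were lower, and the target HES1 was at 185 against 308. Of 3 tested hedgehog genes, the transcription factor GLI3 was higher, at 49.78 against 17.98 CPM, and the receptor PTCH1 was at 46.53 against 61.72. These counts of 1 to 3 genes a list stand beside the background of 1.74% higher and 4.89% lower over all tested genes, and no list is called particular to the members.

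Genes that supply or anchor melanocytes gave a mixed picture beside KITLG. Of the 4 tested genes of that list other than KITLG, 1 was higher and 1 lower, beside 1.74% and 4.89% over all tested genes. CADM1, an adhesion molecule, was at 224.2 CPM in members and 84.2 in the others, and ASIP, the agouti signal to melanocytes, at 209.6 and 254.2. The melanocyte list itself summed to 24.92 CPM in members and 16.87 in the others. DCT, a melanin synthesis enzyme, made up most of it, at 20.43 against 4.666 CPM, whereas MLANA, TYR and GPR143 had no UMI in any member. Of the 12 melanocyte genes only DCT reached 10 CPM in either sum, so those zeros say little. The metallothioneins, small metal-binding proteins, summed to 549.5 against 251.4 CPM, and 1 of 3 passed 2-fold, MT3 at 221.2 against 63.3, with MT2A at 100.2 against 49.94 and MT4 at 228 against 138.2.

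As a group the members were not set apart by the cell cycle. The 15 measured mitosis genes summed to 889.5 CPM in members and 970 in the others, a log2 ratio of -0.13, and of 13 tested none was past 2-fold in either direction. TOP2A, which untangles replicated chromosomes, was at 204.3 CPM in members and 204.4 in the others. The 17 replication genes summed to 562.1 against 676.4 CPM, again with none of 11 tested past 2-fold. For all tested genes the shares were 1.74% higher and 4.89% lower. In the core members the mitosis list summed to 1157 CPM, and members of cluster 2 held most of these UMIs.

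The remaining lists gave few higher genes, beside 1.74% higher and 4.89% lower over all tested genes. Of 9 tested outer root sheath and basal genes 2 were higher, KRT15 at 70.5 against 22.79 CPM and KRT75 at 37.22 against 3.172, and 2 were lower. The companion layer and medulla list, which also holds KRT75, had 1 of 6 higher and 1 lower. Of 11 FGF, EGF and IGF genes 5 were lower and none higher, and of 6 small proteoglycan and matrix genes 5 were lower, among them SPARC at 42.66 against 210.9 CPM. DCN, on the same list, was at 468.9 against 324.8 CPM. The growth factor and matrix lists were high in the dermal papilla-like clusters, at 5497 and 6523 CPM. The exclusion by COL1A1 and RSPO2 keeps such cells out of the members, so these lower counts are no independent result. Among 7 transcriptional repressors MYC was lower, at 38.55 against 79.95 CPM, and of 12 immediate early and stress genes, which can follow dissociation, none passed 2-fold. The single tested glial gene, NCAM1, was at 19.81 against 28.43 CPM, and of 3 tested secreted neural factors 1 was lower.

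Within the core the members spread over states that differed in the rule genes themselves. In the order of clusters 3, 2, 9, 16 and 13, ALDH1A3 was at 687.2, 505.1, 1959, 1279 and 1317 CPM. CRABP1 was at 426.9, 421.1, 1007, 1623 and 1799 CPM. KITLG had another order, at 1423, 879.8, 1393, 172.2 and 334.7 CPM. Clusters 16 and 13 thus combined the highest CRABP1 with the lowest KITLG, and cluster 9 was high in ALDH1A3 and KITLG alike. NPTX2 was highest in cluster 16, at 1218 CPM, and lay between 476.8 and 837.3 CPM in the other core clusters. PRDM1 lay between 81.78 CPM in cluster 13 and 211.7 CPM in cluster 9.

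Members of cluster 2 were highest in mitosis genes. TOP2A was at 925.7 CPM there and between 10.74 and 57.57 CPM in the other core clusters, and the mitosis list summed to 3838 CPM there and to 311.8 in cluster 3. The replication list summed to 1197 CPM in members of cluster 2 and 1047 CPM in those of cluster 3. In members of clusters 9, 16 and 13 it lay between 71.17 and 176.1 CPM. MCM5, a subunit of the replicative helicase, was at 274.2 CPM in cluster 3, against 63.51 CPM in the other core members. Clusters 3 and 2 both had DCN, a small proteoglycan, at 1182 CPM (cluster 3) and 1216 CPM (cluster 2), and MT3 at 558.4 and 538.1 CPM. WIF1, a secreted Wnt inhibitor, was at 166.8 CPM in cluster 3, 118.3 in cluster 2 and 2.932 in cluster 16. LEF1, a mediator of Wnt signalling, was at 238.5 CPM in cluster 3, 226.5 in cluster 2 and 33.85 in cluster 16. Against the other core members, 578 of 5368 genes were at least 2-fold higher in cluster 2 (10.8%) and 256 lower (4.77%), and in cluster 3 73 of 5160 were higher (1.41%) and 324 lower (6.28%). Since these genes also shaped the clusters, the values describe them and are no test.

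Members of clusters 9, 16 and 13 carried the keratin and envelope genes found over all members. CNFN was at 961.7 CPM in cluster 16 and 339.7 in cluster 13, but at 7.862 in cluster 9 and under 4 in clusters 3 and 2. KRT23 was at 341.7 CPM in cluster 9, 1022 in cluster 16 and 717.2 in cluster 13, against 17.07 in cluster 3. FABP3.1 was at 6323 CPM in cluster 9, 22712 in cluster 16 and 17300 in cluster 13, and at 921.8 in cluster 3. Outside the core it was at 8253 CPM in members of hair shaft-like cluster 6 and 8610 CPM in hair shaft-like cluster 25, above cluster 9. CDKN1A was at 28.22 CPM in cluster 3, 50.36 in cluster 2, 271 in cluster 9, 1134 in cluster 16 and 581.3 in cluster 13. Outside the core, this cell cycle inhibitor was at 554 CPM in the cluster with immune markers and 272.5 CPM in cluster 25. Clusters 9, 16 and 13, highest in it among the core clusters, had the mitosis list at 79.93, 47.71 and 100.7 CPM.

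Cluster 9 was marked among the core members by few genes. Only 29 of 5095 tested genes (0.569%) were at least 2-fold higher there than in the other core members, and 352 (6.91%) were lower. Past 2-fold were GLI3, at 135.7 CPM against 63.09 in the other core members, and the basal keratin KRT5, at 127.6 against 54.13. WNT10A, at 169.6 against 96.38, was short of it. In cluster 16, 478 of 5265 genes were higher (9.08%) and 1065 lower (20.2%). KRT14 and KRT17, keratins of the outer root sheath and companion layer, were at 3390 and 2082 CPM there, and KRT75, a keratin of the companion layer and medulla, at 246 CPM. VSIG8 was at 1023 CPM, the adhesion gene CADM1 at 1021 and CTSV at 3148. KRT14 was at 23244 CPM in the outer root sheath-like cluster, so cluster 16 lay well below that level.

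Cluster 13 shared genes with cluster 16 but was shallow, with a median of 3717 UMIs per member cell and mitochondrial genes at a median of 0.527% of UMIs, against 6.438% in members of cluster 16. The haemoglobin gene HBAI was at 1571 CPM in its members and between 14.41 and 17.52 CPM in those of the other core clusters. Of 5084 tested genes, 102 were at least 2-fold higher in its members than in the other core members (2.01%) and 1175 lower (23.1%). The part of depth and blood RNA in these counts was not tested.

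**Figure D4:**
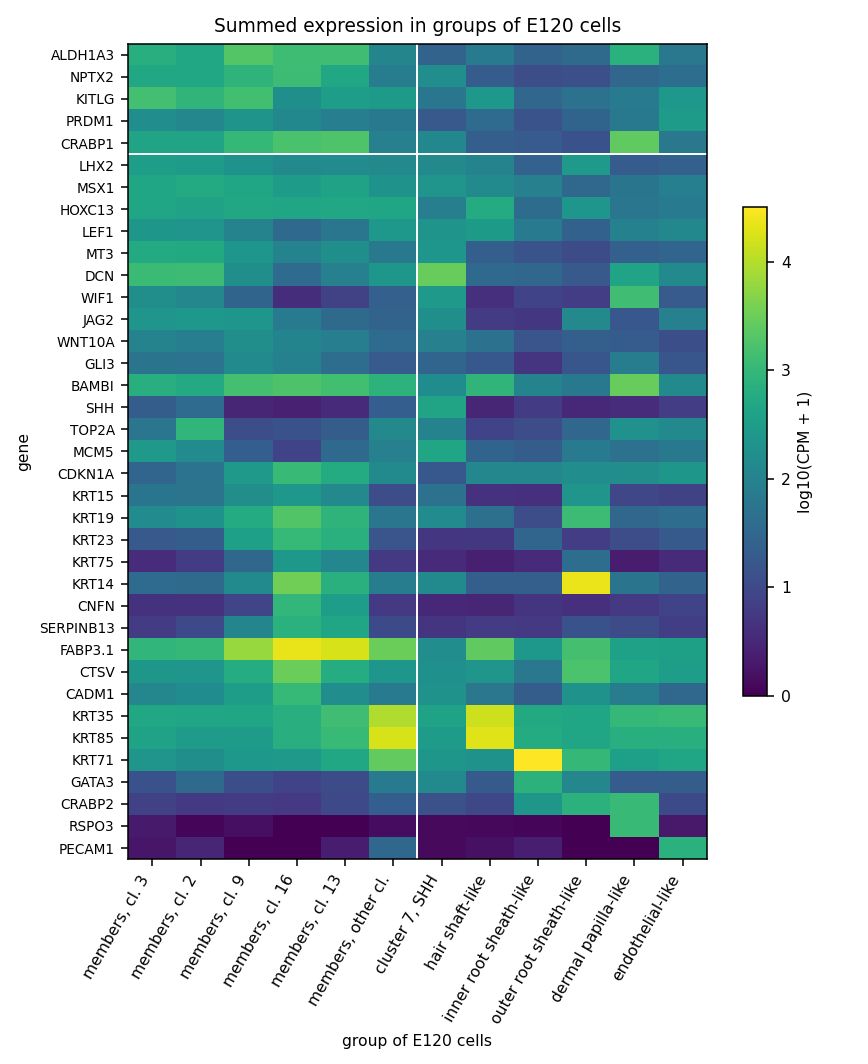
Level of 37 genes, as log10 of CPM + 1 by colour, in members of the 5 core clusters, members of all other clusters and 6 further groups of E120 cells; the white lines set off the rule genes (top) and the members (left). KITLG goes from 1423 CPM in members of cluster 3 to 172.2 in those of cluster 16, and CNFN from 3.641 to 961.7.

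Among the cells outside the core, cluster 7 was set beside the members because it shared DCN (2865 CPM), WIF1 (269.3), MT3 (229.3) and JAG2 (173.4 CPM) with members of clusters 3 and 2. It was led by SHH, at 419.7 CPM, against 20.25 CPM in members of cluster 3. Of the rule genes, NPTX2 was at 160 CPM and CRABP1 at 123.3 CPM there, with ALDH1A3 at 26.51 and KITLG at 56.53. Of its cells 15.03% were members, and 1.049% passed after thinning.

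Single rule genes, or pairs of them, were also found in other named clusters. KITLG was at 248.5 CPM in the hair shaft-like clusters and 248.8 CPM in the endothelial-like ones, and PRDM1 at 311.8 CPM in the latter, above its 149.4 CPM in core members. ALDH1A3 and CRABP1 were at 736.6 and 2542 CPM in the dermal papilla-like clusters, where NPTX2 was at 30.16. These groups held between 223 and 1644 cells.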

How the data were processed

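The deposited table held, per the labels, one column per cell with the stage opening its name. Its values were natural log values made by the authors: UMIs scaled to 10000 per cell, plus 1, as the values themselves showed. Cell Ranger 3.0.2 is named in the submitters' processing notes. The genome build, annotation and cell filters are not given in the sources used here. UMI counts were recovered by inverting the log and dividing by each cell's smallest value; 100% of the 14965452 nonzero E120 values came out whole within a tolerance of 0.01. The recovery assumes that this smallest value is 1 UMI. All 16739 genes and all cells entered. Cell barcodes shared between libraries numbered 9 (E60 and E90), 10 (E60 and E120) and 13 (E90 and E120).

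Counts were summed over cells, scaled to CPM and compared by the log2 ratio of CPM + 1. A gene was tested at 10 CPM or more in either sum and called past 2-fold; with 1 library per stage no significance test was made. E120 cells were clustered on 2000 variable genes, 30 principal components and 20 neighbours with Leiden at resolution 1 (Python 3.11.15, numpy 2.4.6, scipy 1.17.1, scikit-learn 1.9.0, igraph 0.11.9, leidenalg 0.10.2). A cluster of at least 50 cells was named, as "like" a type, from at least 3 markers. Each marker was in 10% of its cells and 2-fold above the median cluster. That type alone had to have the most markers among its 10 leading genes. Its list also had to sum to at least 2-fold the level over all E120 cells. Clusters with 3 or more mitochondrial, haemoglobin or ALAS2 genes among the 10 were not named. This scoring was set after the data were seen. Doublets stayed in. The doublet caller marked 1.465% of E120 cells and 25.88% of simulated doublets, so doublets may remain. Sums, intervals and calls were tested on simulated data.

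Members and lists were chosen with earlier results of these data known. Named genes were list genes at 50 CPM or more and past 2-fold and, outside the 26 lists, the 15 highest and 8 lowest ratios at 100 CPM or more among genes with a symbol; further list genes, rule genes and genes leading core clusters were named after their values were seen. Alternatives changed the rule, depth, filters, weighting, comparison cells, pseudocount, CPM minimum and scaling. 1 gene that the rule names is not reported here. No sequence is printed.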

Additional observations from a re-analysis of the deposited data

How the results depend on the processing

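The share of members (31.77%) was 17.88% with at least 4 rule genes, 54.1% with at least 2, 33.67% without exclusion, 13.25% after thinning and 19.43% with core members only. The 91 genes at least 2-fold higher became 153 with at least 4 rule genes, 170 after thinning, 200 with the rule on thinned cells and all UMIs summed, 217 with core members, 56 with a pseudocount of 10 CPM, 152 with no CPM minimum and 41 with a minimum of 50 CPM. The 255 lower ones became 580 after thinning, 423 with each cell weighing the same, 141 against other cells in clusters with at least 10% members, 421 with core members, 125 with the larger pseudocount, 674 with no minimum and 67 with the higher one. The hair shaft log2 ratio (-0.01) had no stable sign: -1.09 with at least 4 rule genes, 0.68 with at least 2, -0.0561 without exclusion, -2.62 after thinning, 0.0322 under the filter on genes and mitochondrial UMIs, -0.0281 without called doublets, -0.20 with equal weights, -0.0551 against cells with 0 COL1A1 and RSPO2, -0.40 in shared clusters, 0.10 with median-of-ratios scaling, -3.55 in core members and -2.87 with the rule on thinned cells. The mitosis ratio (-0.13) was -0.0507 with at least 4 rule genes, -0.0893 without exclusion, -0.35 after thinning, -0.0697 with equal weights, -0.28 in shared clusters, -0.0170 with median-of-ratios scaling, 0.25 in core members and -0.27 with the rule on thinned cells. The dermal papilla ratio (-1.36) was -1.22 with at least 4 rule genes, -1.72 with at least 2, -0.0585 without exclusion, -1.78 after thinning, -1.40 under the cell filter, -1.90 with equal weights, 0.0001 against cells with 0 COL1A1 and RSPO2, -0.40 in shared clusters, -1.25 with median-of-ratios scaling, -1.21 in core members and -1.07 with the rule on thinned cells. Median-of-ratios scaling moved the median log2 ratio of all genes from -0.05 to 0.06. Of the 50 named genes, GAL1 (0.28) and SBSN (0.18) turned higher in shared clusters, where 27 stayed past 2-fold; the cause was not tested. The core and thinned-rule settings were chosen after the data were seen. No paired analysis was possible because each stage has 1 library. Depth limits membership, since a gene at 1 UMI decides it.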

Other observations

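COL1A1 or RSPO2 kept out 131 E120 cells with at least 3 of the 5 rule genes. They held 1270 CPM of CRABP1, 617.1 of ALDH1A3 and 206.2 of NPTX2, against 2542, 736.6 and 30.16 CPM in the dermal papilla-like clusters. Since the rule genes chose these cells, those values are a description only. The papilla ligand RSPO3 was at 461.4 CPM in them and 1074 CPM in those clusters, WIF1 at 541.1 and 1329, and the pigment-switching ASIP at 975.5 and 1910. RSPO3, WIF1 and ASIP, at 0.4434, 53.06 and 209.6 CPM in members, thus lay between members and those clusters. CTSV, at 386.8 CPM, was below both (605.2 and 468.5). The 131 cells also held epithelial genes, with KRT35 at 3656 CPM and KRT14 at 468.5 CPM. KRT14 was at 455.7 CPM in members and 52.28 CPM in the dermal papilla-like clusters. Doublets were marked in 11.45% of the 131 cells, against 2.373% of members, and the part of doublets in these values was not tested.

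The 56 members in endothelial-like cluster 8 held endothelial genes. PECAM1, an endothelial adhesion molecule, was at 420.3 CPM, and PLVAP, of fenestrated endothelium, at 3031 CPM, against 590.7 and 3957 CPM over all cells of cluster 8. PRDM1 was at 336.9 and KITLG at 350.5 CPM in them, with ALDH1A3 at 194, CRABP1 at 219.5 and NPTX2 at 166.8 CPM. These rule genes chose the members. The median member of cluster 8 had 1 UMI of ALDH1A3 and 0 of CRABP1 and NPTX2. A single cell held up to 33 of the 114 ALDH1A3 UMIs, 61 of the 129 of CRABP1 and 30 of the 98 of NPTX2. Of the 56 members 23.21% were marked as doublets.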
